A study of Mus musculus with 8 samples.

Results

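The genes described here are the members of the 4 Hox clusters, HoxA to HoxD, measured in whole embryonic mouse kidneys. Members were chosen by name, from 38 Hox genes, and by matching the RefSeq accession of each array probe to those names. A probe was matched for 35 of the 38 genes, through 45 probes, out of 31183 genes tested on the array; Hoxc4, Hoxc6 and Hoxc11 had no matched probe and are not analysed here. The kidneys were dissected at E13.5, by embryonic day, from mice on a mixed CD1 and C57BL/6 background. The groups are kidneys labelled UB HDAC1,2-/-, a loss of both histone deacetylases that the labels place in the UB (ureteric bud, the epithelium that forms the collecting ducts), and kidneys labelled wild type; age, strain and tissue are the same in both. By the sample labels, each of the 4 biological replicates paired 1 RNA of each label on 2 Agilent two-colour arrays with the Cy3 and Cy5 dyes exchanged, which gave 8 arrays on 2 slides. The series description words the dye exchange otherwise, and the sample labels were followed here. The labels do not name the driver of the knock-out or say whether kidneys of several embryos were pooled. The RNA is that of the whole organ, so fewer bud cells and less RNA per bud cell cannot be told apart.

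Hox genes encode homeodomain transcription factors that give cells along the head-to-tail axis their positional identity. They lie in clusters, and genes at matching places in different clusters form paralog groups; low-numbered groups are used toward the head and high-numbered groups toward the tail. Hox proteins bind DNA with TALE homeodomain partners of the Pbx and Meis families, retinoic acid and Cdx proteins help to set their expression, and Polycomb and trithorax proteins keep them silent or active. In the kidney, genes of paralog group 11 act in the metanephric mesenchyme and are needed for outgrowth of the ureteric bud, genes of group 10 act in the renal stroma, and Hoxb7 is expressed in the bud epithelium, where its regulatory sequence is widely used to drive transgenes. The comparison asked whether RNA of these genes differs between kidneys of the 2 labels.

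The sequences upstream of 3 members are shown, because these are the members with an unadjusted p below 0.05 in the comparison described below that have a promoter entry. Each is the 250 bases before the RefSeq transcription start in the GRCm38.p6 build, printed 5′ to 3′ on the strand of the gene, with capitals marking every CG dinucleotide. Hoxd1 lies on the plus strand at chr2:74762730-74762979, Hoxd8 on the plus strand at chr2:74704365-74704614 and Hoxa9 on the minus strand at chr6:52227371-52227620.
Hoxd1: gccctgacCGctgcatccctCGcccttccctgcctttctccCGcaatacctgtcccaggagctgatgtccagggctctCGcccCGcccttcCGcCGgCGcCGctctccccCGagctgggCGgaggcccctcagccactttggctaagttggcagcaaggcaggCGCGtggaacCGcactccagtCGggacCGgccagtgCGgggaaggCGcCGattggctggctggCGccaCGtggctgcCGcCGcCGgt
Hoxd8: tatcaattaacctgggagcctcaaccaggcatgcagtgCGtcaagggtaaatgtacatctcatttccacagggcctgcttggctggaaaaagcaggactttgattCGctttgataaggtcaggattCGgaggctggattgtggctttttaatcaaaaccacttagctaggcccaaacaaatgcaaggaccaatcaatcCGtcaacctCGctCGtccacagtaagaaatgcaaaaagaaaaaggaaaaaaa
Hoxa9: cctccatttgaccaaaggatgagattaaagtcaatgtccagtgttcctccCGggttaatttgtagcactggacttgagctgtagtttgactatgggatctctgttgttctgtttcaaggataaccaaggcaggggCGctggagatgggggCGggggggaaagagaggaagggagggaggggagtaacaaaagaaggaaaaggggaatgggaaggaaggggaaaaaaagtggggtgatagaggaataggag

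The Hoxd1 stretch holds 24 CG dinucleotides and is 71.6% G and C, against 6 and 44.4% for Hoxd8 and 3 and 49.6% for Hoxa9. Promoter entries were found for 22 of the 38 members, with 24 transcription starts. The median Hox stretch held 12.5 CG dinucleotides (from 2 to 35), and the median over all 32851 promoter stretches of this length held 6. The retinoic acid receptor core site AGGTCA, searched on both strands, occurred in 6 of the 24 Hox stretches (25%) and in 14% of all stretches; Hoxd8, Hoxb4 and Hoxd4 were among those that held it. The Cdx site TTTATG occurred in 5 Hox stretches (20.8%, against 10.8% of all), the Hox-Pbx site TGATNNAT in 4 (16.7% against 7.68%) and the Meis site TGACAG in 2 (8.33% against 15.9%). These counts describe letters in a short window.

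Most Hox genes were detected in kidney RNA of both labels. A probe counted as detected where the scanner software marked its signal as well above background. In both channels 30 of the 35 genes were detected on all 8 arrays. The exceptions stood at the ends of the clusters or in HoxC: Hoxb1, a hindbrain gene, Hoxb13, known from the prostate and the tail bud, and Hoxc8 were each detected on 7 arrays in either channel. Hoxc12 was detected on 7 arrays in the channel labelled wild type and 6 in the other, and Hoxc13, needed for hair formation, on 6 and 4. The median signal over local background in the channel labelled wild type was 2.0 for Hoxc12, 2.24 for Hoxc13, 3.11 for Hoxb13 and 3.28 for Hoxb1. For Hoxb9 it was 305, for Hoxb7 289 and for Hoxa11 222. Signals of different probes also depend on the probe, so genes are not ranked by level. All 10 HoxA genes and all 9 HoxD genes were detected on every array in both channels, including Hoxa13 and Hoxd13, known from the limb bud, the hindgut and the urogenital sinus. The Hoxa13 signal was 4.54 times background in the channel labelled wild type. Its dimmer probe was detected on 3 arrays in that channel and 4 in the other.

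**Figure D1:**
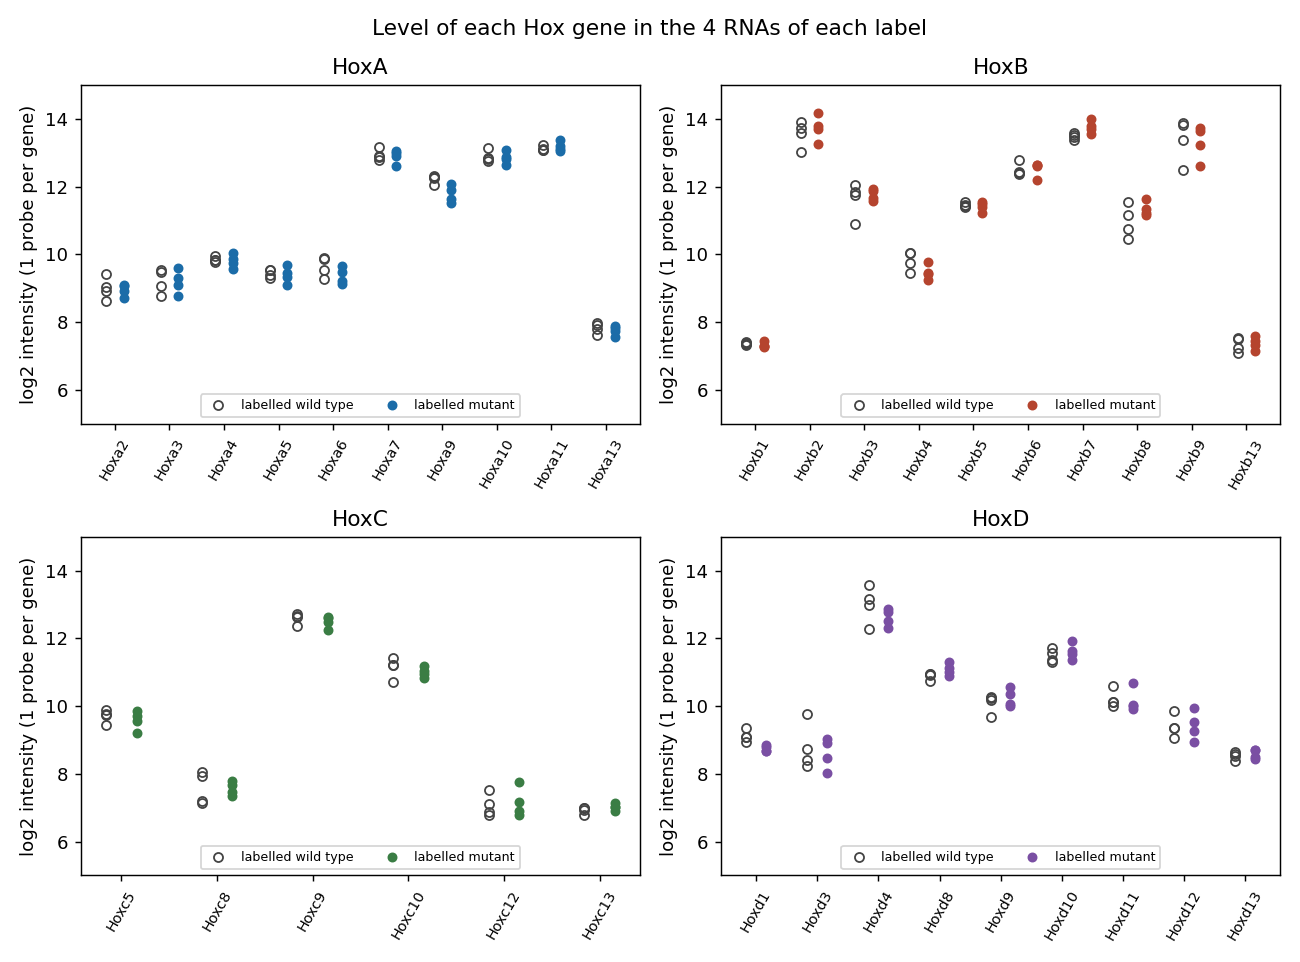
Log2 intensity of each measured Hox gene (vertical axis, 1 probe per gene) in the 4 RNAs labelled wild type (open circles) and the 4 RNAs labelled mutant (filled circles), by cluster, with genes in order of paralog group. The ranges of the 2 labels overlap for every gene except Hoxd1, and Hoxa13, Hoxc12, Hoxc13, Hoxb1 and Hoxb13 lie below 8 in every RNA.

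Some facts of the arrays bear on all that follows. For RNA labelled wild type, 79.2% to 97.1% of an array's spots were detected, and for RNA labelled mutant 82.1% to 95.9%. On the replicate 2 array with the RNA labelled mutant in Cy5, where both shares were lowest, 30 of the 35 Hox genes were detected in each channel. Levels of a Hox gene differed between the 4 RNAs labelled wild type by a median SD of 0.19 (log2), against 0.25 for all genes.

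The direction of every ratio given here follows the dye labels of the samples, as RNA labelled mutant over RNA labelled wild type. The authors' deposited table of ratios has the opposite sign in 266 of the 266 entries that can be set against 1 spot, so if that table is mutant over wild type, every sign given here turns. None of its 496 entries names a Hox gene of this set. Of the 2 targeted genes Hdac2 was checked against the labels; the other is not analysed here. Hdac2 had log2 ratios of labelled mutant over labelled wild type of 0.45, 0.40, 0.61 and -0.43 in replicates 1 to 4 (mean 0.26 ± 0.47, SD, n = 4; limma adjusted p = 0.804), which does not show a loss in the whole kidney. Ratios of arrays of the same dye orientation correlated between -0.264 and 0.675 over 39520 probes, and the 2 arrays of a replicate, turned the same way, between -0.277 and 0.689.

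No Hox gene differed between the labels at an adjusted p below 0.05 in limma, and neither did any of the 31183 genes (0%). With all 8 arrays fitted and the replicate as a block, which counts both arrays of a replicate, limma called 58 genes higher and 16 lower and again no Hox gene. At an unadjusted p below 0.05, 4 of 35 Hox genes passed, Hoxb7 and Hoxd8 with higher values in the RNA labelled mutant and Hoxd1 and Hoxa9 with lower ones; 5.9% of all genes passed (1839 genes), 3.25% higher and 2.64% lower. That share of 35 genes is about 2. The Hox count itself went from 1 without replicate 3 to 7 without replicate 2, and that over all genes from 892 to 2187. The same sign in 4 of 4 replicates was seen in 6 Hox genes, 3 in each direction, and in 14.4% of all genes (8.62% higher and 5.78% lower). In the main fit, with loess normalization, no Hox gene reached a mean difference of 1.4-fold, and the SD over replicates was larger than the size of the mean in 29 of the 35 genes. With arrays centred on their median, Hoxb7, Hoxb8 and Hoxb2 passed 1.4-fold, at mean log2 ratios of 0.62, 0.57 and 0.51. Hoxd4 passed it with the scanner software's log ratios, at -0.51.

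By cluster, HoxA genes lay mostly below 0 with loess normalization, though not when arrays were centred on their median, and the other clusters were mixed. In HoxA 1 of 10 genes had a mean log2 ratio above 0 (median -0.05), in HoxB 6 of 10 (median 0.03), in HoxC 2 of 6 (median -0.06) and in HoxD 5 of 9 (median 0.01). Over all 35 Hox genes 14 had a mean above 0 (median -0.04), against 44.6% of all genes (median -0.02). The medians of the 35 genes in the 4 replicates were 0.02, -0.06, -0.06 and 0.06, so they changed sign between replicates. With median centring the counts above 0 were 5 of 10 in HoxA, 7 of 10 in HoxB, 2 of 6 in HoxC and 6 of 9 in HoxD, and with the scanner software's log ratios 3, 7, 4 and 4. No cluster was tested as a set, and the HoxA count rests on small values: 7 of its 9 genes below 0 had means between -0.08 and -0.02.

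By position along the axis, 2 of 10 anterior genes (groups 1 to 4), 4 of 10 central genes (groups 5 to 8) and 8 of 15 posterior genes (groups 9 to 13) had a mean above 0, with medians of -0.05, -0.02 and 0.01; with median centring the central median was 0.22 and 6 of the 10 were above 0. Group 4, which holds Hoxa4, Hoxb4 and Hoxd4, had 0 of 3 above 0 and the lowest median (-0.36); with median centring the 3 genes were at 0.02, -0.30 and -0.08. Group 8, with Hoxb8, Hoxc8 and Hoxd8, had 2 of 3 above 0 and the highest median (0.19), and group 13 had 3 of 4 above 0 (median 0.04). With median centring Hoxa13, Hoxb13, Hoxc13 and Hoxd13 were at -0.17, -0.12, -0.06 and 0.01, and the signals of Hoxb13 and Hoxc13 were near background. Spearman's rho between the mean ratio and the paralog number was 0.26 over the 35 genes, and -0.04, 0.15, 0.54 and 0.43 within HoxA, HoxB, HoxC and HoxD; it is a description over genes that share the same 8 arrays. Of 31 pairs of neighbouring measured genes within a cluster, 20 had means of the same sign. This was 7 of 9 pairs in HoxA, where 1 of 10 genes was above 0, 4 of 9 in HoxB, 4 of 5 in HoxC and 5 of 8 in HoxD. The share that the mix of signs alone would give was not computed, so the count does not show a common change of neighbours.

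**Figure D2:**
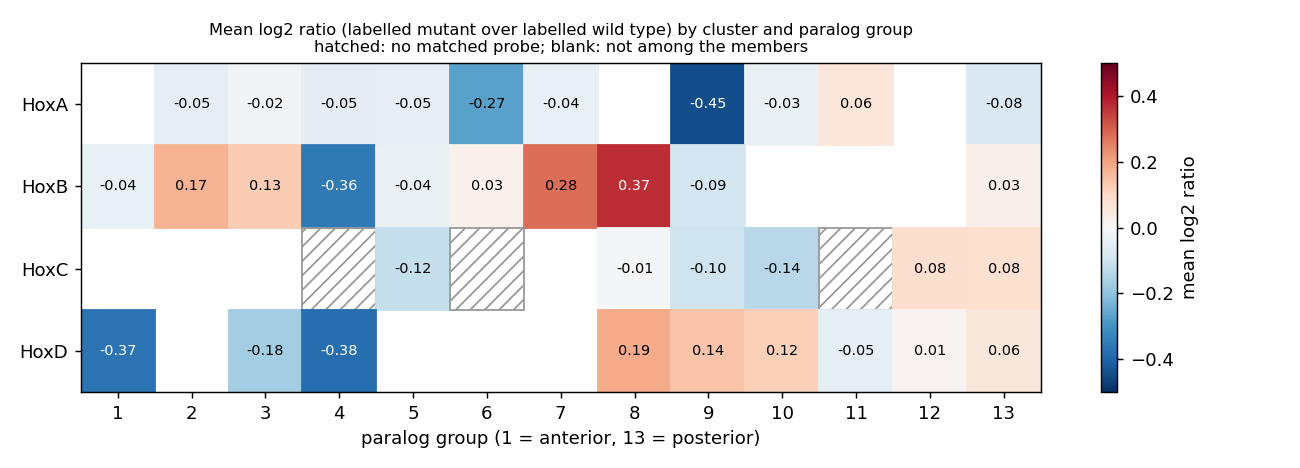
Mean log2 ratio of labelled mutant over labelled wild type (n = 4 replicates), printed and coloured from blue (-0.5) to red (0.5), with clusters in rows and paralog groups 1 to 13 in columns; hatched cells are members with no matched probe. The deepest blue cells are Hoxa9 (-0.45), Hoxd4 (-0.38), Hoxd1 (-0.37) and Hoxb4 (-0.36), and the deepest red cells Hoxb8 (0.37) and Hoxb7 (0.28).

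With loess normalization, genes of the kidney's own paralog groups 10 and 11 had mean log2 ratios between -0.14 and 0.12. Hoxa11, needed with its paralogs for the bud to form, had log2 ratios of -0.11, -0.06, 0.12 and 0.29 in replicates 1 to 4 (mean 0.06 ± 0.18, SD, n = 4; limma 95% interval -0.16 to 0.28). Its levels were 13.23, 13.11, 13.07 and 13.09 in the RNAs labelled wild type and 13.12, 13.05, 13.19 and 13.38 in those labelled mutant, and the ranges overlapped. With median centring the Hoxa11 mean was 0.38, outside that interval, with an unadjusted p of 0.0417 in limma. Hoxd11, its partner in the mesenchyme, gave -0.14, -0.06, -0.09 and 0.10 (mean -0.05 ± 0.10; interval -0.22 to 0.12). For both genes replicate 4 was the highest, and Hoxd11 levels of that pair, 10.59 and 10.69, were above the other 6 RNAs (9.92 to 10.13).

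The group 10 genes, known for renal stroma and the hindlimb, had no common sign. Hoxa10 gave 0.06, -0.06, -0.20 and 0.06 (mean -0.03 ± 0.12; interval -0.22 to 0.15). Hoxc10, a lumbar gene, gave -0.37, 0.23, -0.17 and -0.25 (mean -0.14 ± 0.26), and its other probe had a mean of -0.14. Hoxd10, which acts in lumbar motor neurons and the hindlimb, gave 0.54, -0.18, 0.06 and 0.05 (mean 0.12 ± 0.30). Replicate 1 was far above the others, and without it the mean was -0.02. With median centring the Hoxd10 mean was 0.35, with an unadjusted p of 0.0441 in limma.

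Among the group 9 genes, which act together in the trunk and the limb, Hoxa9 had the largest difference. Its log2 ratios were 0.03, -0.61, -0.40 and -0.80 (mean -0.45 ± 0.36, SE 0.14, n = 4), a 1.36-fold lower mean in the RNA labelled mutant, with an unadjusted p of 0.0245 and an adjusted p of 0.773 in limma. Its levels were 12.05, 12.25, 12.30 and 12.32 in the RNAs labelled wild type and 12.08, 11.63, 11.89 and 11.52 in those labelled mutant. The 4 wild type values lay close together, the mutant values spread downward, and in the replicate 1 pair the order was turned. Within slide 1 the mean was -0.29 and within slide 2 -0.60.

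The other group 9 genes stayed near 0 with loess normalization. Hoxb9 gave -0.15, -0.18, -0.16 and 0.11 (mean -0.09 ± 0.14). Its levels on the brightest probe were 13.86, 13.83, 13.37 and 12.50 in the RNAs labelled wild type. In those labelled mutant they were 13.72, 13.65, 13.21 and 12.61, so on this probe the pairs differed by more than the labels did. The other Hoxb9 probe gave 12.80, 12.33, 12.53 and 13.02 in the RNAs labelled wild type, highest in replicate 4. Its mean log2 ratio was -0.01 ± 0.22. Hoxc9, which patterns thoracic motor neurons, gave -0.14, -0.16, -0.11 and -0.01 (mean -0.10 ± 0.06; limma unadjusted p = 0.137), below 0 in 4 of 4 replicates. Hoxd9 gave -0.14, 0.32, 0.11 and 0.28 (mean 0.14 ± 0.21), while its dimmer probe gave a mean of -0.10 ± 0.16, so the sign of this gene depends on the probe.

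Hoxb7, the gene of the ureteric bud, had log2 ratios of 0.42, 0.04, 0.33 and 0.34 (mean 0.28 ± 0.16, SE 0.08, n = 4), a 1.22-fold higher mean in the RNA labelled mutant with a 95% interval of 0.07 to 0.49, an unadjusted p of 0.0171 and an adjusted p of 0.729 in limma. Its levels were 13.59, 13.52, 13.37 and 13.46 in the RNAs labelled wild type and 14.004, 13.57, 13.70 and 13.80 in those labelled mutant. The mutant member of each pair was the higher, by least in replicate 2, and the ranges of the labels overlapped. The mean was 0.23 within slide 1 and 0.33 within slide 2, and 0.22 and 0.34 with the RNA labelled mutant in Cy5 and in Cy3. With arrays centred on their median in place of loess the mean was 0.62, outside that interval.

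Most markers of the bud epithelium also had means above 0. Of 12 markers 9 had a mean above 0 (median 0.35), against 44.6% of all genes. At an unadjusted p below 0.05 in limma 7 were higher, against 3.25% of all genes, with 0 at an adjusted p below 0.05. The markers were chosen with earlier results of these data known, so these counts are a description only. The kidney cadherin Cdh16 had a mean log2 ratio of 1.33 ± 0.21, the keratin Krt8 0.85 ± 0.19, the calcium-binding protein Calb1 0.79 ± 0.20 and the adhesion molecule Epcam 0.67 ± 0.14 (n = 4 each; limma adjusted p = 0.114, 0.167, 0.178 and 0.178). The bud markers Ret, Wnt9b and Tfap2b went the other way, with means of -0.07 ± 0.25, -0.17 ± 0.70 and -0.13 ± 0.25. A fit of all 8 arrays with the replicate as a block counts both arrays of a replicate. Its adjusted p in limma was 0.00259 for Cdh16, 0.00584 for Krt8 and 0.00273 for Calb1. With a consensus correlation of -0.0262, that fit treated the arrays of a replicate nearly as independent. These p-values therefore do not replace those from n = 4. The summed level of the 12 markers was 47080 to 59590 in the RNAs labelled wild type and 81320 to 105800 in those labelled mutant, on the linear intensity scale. Bright markers weigh most in this sum. Their part in the Hoxb7 difference was not tested.

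Hoxd1, known from sensory neurons, had the smallest p of the Hox genes. Its log2 ratios were -0.22, -0.57, -0.27 and -0.42 (mean -0.37 ± 0.16, SE 0.08, n = 4), a 1.29-fold lower mean in the RNA labelled mutant, with a 95% interval of -0.57 to -0.17, an unadjusted p of 0.00474 and an adjusted p of 0.544 in limma. Its levels were 9.07, 9.35, 8.94 and 9.08 in the RNAs labelled wild type and 8.85, 8.78, 8.67 and 8.66 in those labelled mutant. It was the only Hox gene for which the 2 ranges did not overlap; 1.68% of all genes (522 of 31041) showed this. The single arrays were less even. With the RNA labelled mutant in Cy5 the ratios were -0.31, -0.14, -0.60 and -0.83, and with it in Cy3 they were -0.14, -0.999, 0.06 and -0.01.

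All 8 measured neuronal markers of 9 listed had means below 0 (median -0.19; 1 lower at an unadjusted p below 0.05, Stmn2 at -0.43 ± 0.21), and their summed level was 5151 to 6530 in the RNAs labelled wild type and 4913 to 5315 in those labelled mutant. Their median rested on replicate 2: the replicate medians were 0.04, -0.49, -0.07 and -0.01, and without replicate 2 the median was 0.01. Their part in the Hoxd1 difference was not tested.

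Hoxd8, a trunk gene, had the largest of the 4 unadjusted p-values below 0.05. Its log2 ratios were 0.35, 0.08, 0.19 and 0.14 (mean 0.19 ± 0.12, SE 0.07, n = 4; limma unadjusted p = 0.0388, adjusted p = 0.804), a 1.14-fold higher mean in the RNA labelled mutant. Its levels were 10.96, 10.92, 10.95 and 10.73 in the RNAs labelled wild type and 11.31, 11.0001, 11.14 and 10.87 in those labelled mutant. The direction held in 1 dye orientation: the mean was 0.46 with the RNA labelled mutant in Cy3 and -0.08 with it in Cy5, where 3 of 4 arrays were below 0.

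**Figure D3:**
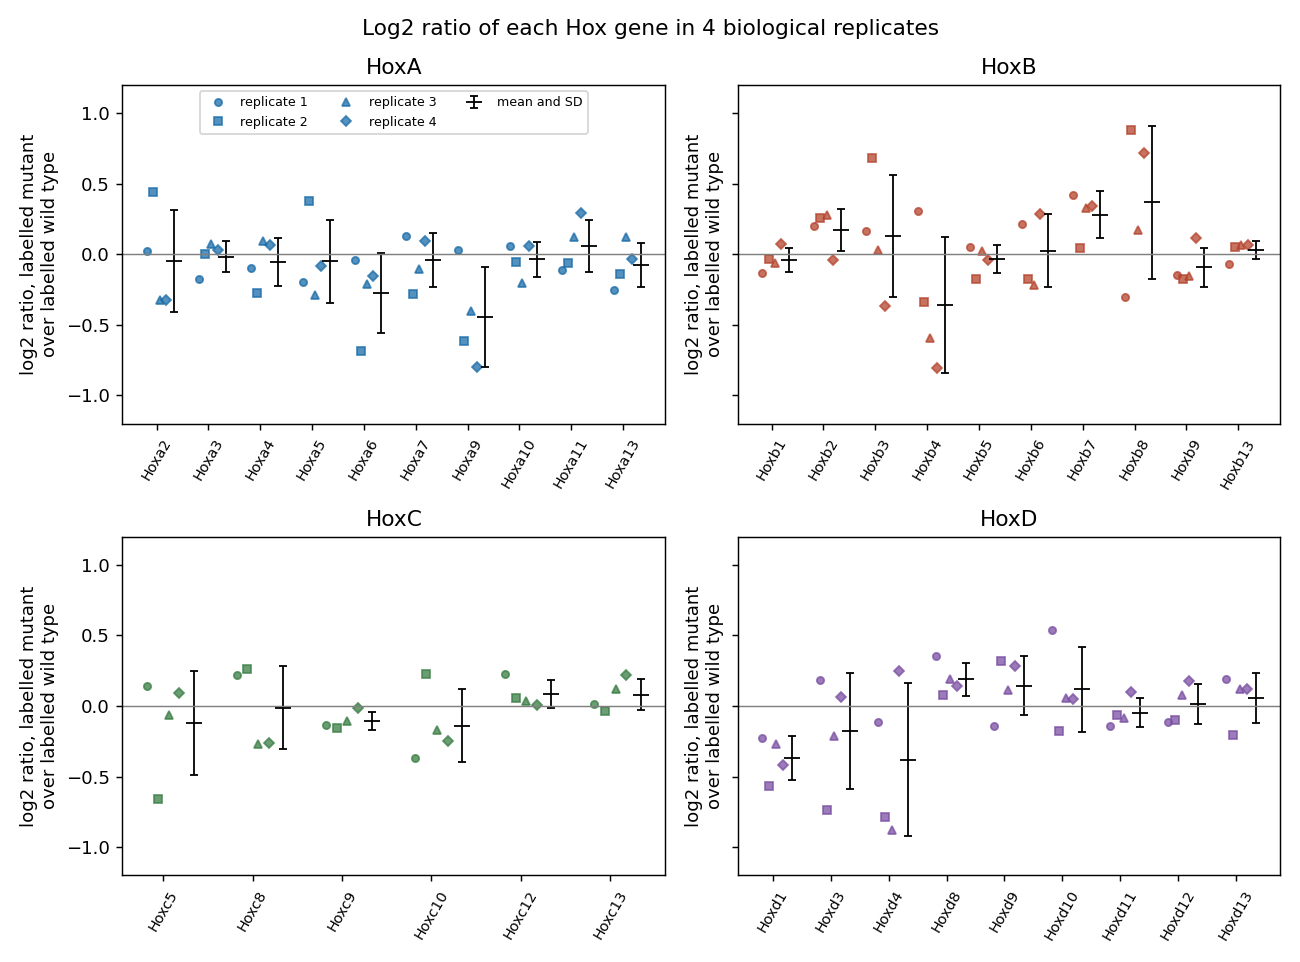
Log2 ratio of labelled mutant over labelled wild type (vertical axis) for each Hox gene in replicates 1 to 4 (circle, square, triangle, diamond; each the mean of 2 arrays), with the mean and SD beside them in black. Hoxd1 is below 0 and Hoxb7 and Hoxd8 above 0 in every replicate, while Hoxb8, Hoxd4 and Hoxb4 spread widely on both sides.

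The largest means outside these genes came with the widest spread. Hoxb8, a gene of blood and microglial cells in addition to the trunk, gave -0.30, 0.88, 0.18 and 0.72 (mean 0.37 ± 0.54, n = 4; limma unadjusted p = 0.135). Its 2 arrays of a replicate had the same sign in 4 of 4 replicates, and its dimmer probe gave a mean of 0.03 ± 0.17. With median centring its mean was 0.57. Its levels ranged from 10.44 to 11.53 over the RNAs labelled wild type and from 11.16 to 11.62 over those labelled mutant. Hoxd4, a retinoic acid responsive gene of the hindbrain, gave -0.11, -0.78, -0.88 and 0.25 (mean -0.38 ± 0.54; unadjusted p = 0.125 in limma), and was at -0.08 with median centring. Its paralog Hoxb4, known for expanding blood stem cells, gave 0.31, -0.34, -0.59 and -0.81 (mean -0.36 ± 0.48; unadjusted p = 0.111 in limma).

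Hoxb4 differed between the slides and between the dyes. Its mean was -0.02 within slide 1 and -0.70 within slide 2, and in slide 2 alone its adjusted p was 0.0496 in limma, from 2 replicates. With the RNA labelled mutant in Cy5 its mean was -0.71, and with it in Cy3 -0.00. Over all Hox genes, 0 had an unadjusted p below 0.05 within slide 1, where 504 of all genes did. Within slide 2, 11 Hox genes and 3486 of all genes did.

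The other members with values at the edges of their clusters were smaller. Hoxa6, which acts in the thoracic region, gave -0.04, -0.69, -0.21 and -0.15 (mean -0.27 ± 0.28), below 0 in 4 of 4 replicates. Hoxa3, needed for the thymus and parathyroid, gave -0.18, 0.00, 0.07 and 0.03 (mean -0.02 ± 0.11). Hoxc5 gave 0.14, -0.66, -0.06 and 0.10 (mean -0.12 ± 0.37), and without replicate 2 its mean was 0.06. Hoxb3, a hindbrain and pharyngeal gene, gave 0.17, 0.68, 0.03 and -0.37 (mean 0.13 ± 0.43), and its dimmer probe gave -0.07, -0.30, -0.44 and -0.13 (mean -0.23 ± 0.16), so its 2 probes disagreed in sign. Hoxc12 gave 0.23, 0.06, 0.03 and 0.01 (mean 0.08 ± 0.10) and Hoxc13 gave 0.02, -0.04, 0.12 and 0.22 (mean 0.08 ± 0.11), both on signals near background. Of the 10 Hox genes with 2 probes, 7 had means of the same sign on both.

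The remaining 14 members were Hoxa2, Hoxa4, Hoxa5, Hoxa7, Hoxa13, Hoxb1, Hoxb2, Hoxb5, Hoxb6, Hoxb13, Hoxc8, Hoxd3, Hoxd12 and Hoxd13. Their means ranged from -0.18 for Hoxd3 to 0.17 for Hoxb2, both hindbrain and neck genes, and 5 of the 14 were above 0. Hoxb2 had the smallest unadjusted p among them, 0.0732 in limma, with ratios of 0.20, 0.26, 0.28 and -0.04. Its mean was 0.51 with median centring and -0.03 with the RNA labelled mutant in Cy3 alone. The 95% intervals of the 35 genes were between 0.30 and 1.05 wide on the log2 scale, and the 31 with an unadjusted p above 0.05 include 0, which does not show that their levels were alike.

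The sign of many small ratios differed between the dye orientations. The mean over the 4 arrays with the RNA labelled mutant in Cy5 and that over the 4 arrays with it in Cy3 had the same sign for 14 of 35 Hox genes (40%), against 43.8% of all genes. Within replicates, the 2 arrays had the same sign in 74 of 140 cases for Hox genes (52.9%), against 43.9% for all genes. Hoxd1, Hoxa9, Hoxd4, Hoxb7 and Hoxb8 kept their sign in both orientations, and Hoxd8, Hoxd10, Hoxa10 and Hoxc5 did not. Hoxb1, whose probe was printed in 10 spots, had an SD between spots of the log2 ratio of 0.01 to 0.15 on single arrays.

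**Figure D4:**
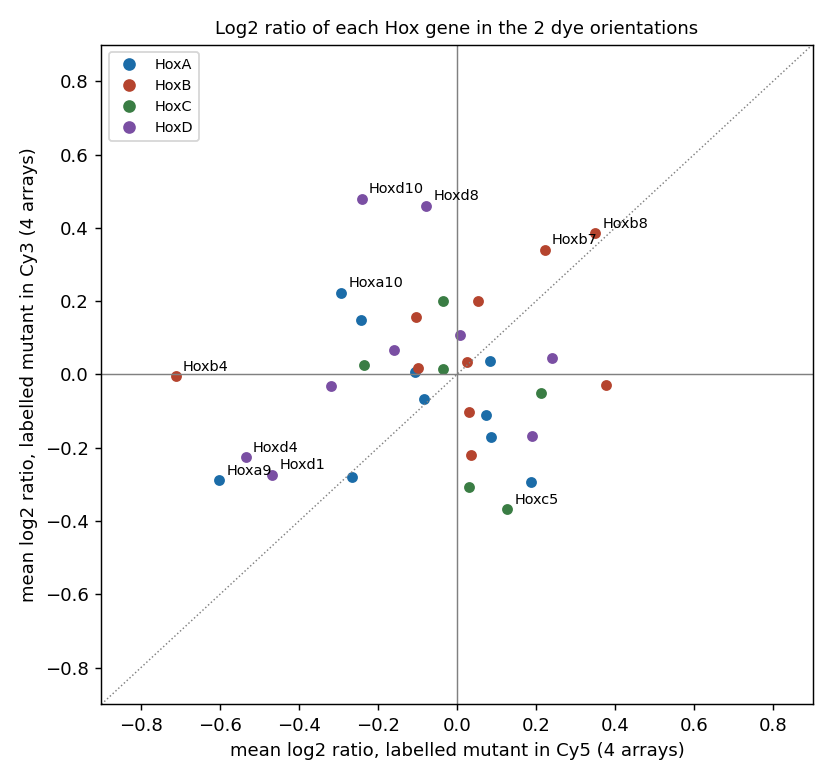
Mean log2 ratio of each Hox gene over the 4 arrays with the RNA labelled mutant in Cy5 (horizontal axis) and over the 4 with it in Cy3 (vertical axis), coloured by cluster; the dotted line marks equal values. Hoxb7 (0.22 and 0.34) and Hoxb8 (0.35 and 0.39) lie in the upper right, Hoxa9 (-0.60 and -0.29) and Hoxd1 (-0.47 and -0.27) in the lower left, and Hoxd8 (-0.08 and 0.46) and Hoxd10 (-0.24 and 0.48) in the upper left.

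The ratios of bright genes also depended on the normalization. Loess normalization bends each array's ratios to 0 along the intensity range, and centring on the array's median does not. Of the 10 Hox genes with a mean log2 intensity above 12, 4 had a mean ratio above 0 with loess (median -0.04) and 8 with median centring (median 0.27). The 4350 genes of all kinds above that intensity moved with them, from a median of 0.02 to 0.34. These means average both dye orientations, and the cause of the shift was not tested. Hoxa10, Hoxb9 and Hoxc9 were below 0 with loess and at 0.27, 0.24 and 0.18 with median centring. With the scanner software's own log ratios, 18 of the 35 genes were above 0 (median 0.00). The 4 genes with an unadjusted p below 0.05 kept their direction under both, but not always their p. With median centring Hoxa9 was at -0.19, with an unadjusted p of 0.341 in limma. Hoxd1 was at -0.38 there, with an unadjusted p of 0.0141 in limma. Hoxb7 and Hoxd8 were larger with median centring, at 0.62 and 0.38, and with the scanner log ratios their limma unadjusted p-values were 0.0627 and 0.0589.

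Partners of Hox proteins lay mostly below 0. Of the 9 TALE cofactors 2 had a mean above 0 (median -0.07), 0 were higher and 2 lower at an unadjusted p below 0.05, and 0 passed the adjusted threshold. Meis2 gave -0.34, -0.35, -0.32 and -0.29 (mean -0.33 ± 0.02, n = 4; unadjusted p = 0.00163, adjusted p = 0.422 in limma), with little spread between replicates, but was at 0.10 with median centring. Meis3 gave -0.37, -0.37, -0.35 and -0.03 (mean -0.28 ± 0.17; unadjusted p = 0.0179, adjusted p = 0.736 in limma). The median of the cofactors was 0.10 with median centring.

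Regulators of Hox expression stayed near 0. Of 17 measured Polycomb and trithorax genes, of 18 listed, 9 had a mean above 0 (median 0.01). The only one at an unadjusted p below 0.05 was Cbx7, a Polycomb chromobox protein, at -0.19 ± 0.09 (limma unadjusted p = 0.0294, adjusted p = 0.788). Of 11 measured Cdx and retinoic acid genes, of 13 listed, 2 were above 0 (median -0.02) and 0 were at an unadjusted p below 0.05; the 2 smallest p-values were those of Cdx4 (-0.16 ± 0.28) and the retinoic acid degrading enzyme Cyp26b1 (-0.15 ± 0.29). Of 8 mesenchyme genes around the function of group 11 in the kidney, 1 was above 0 (median -0.09) and 0 were at an unadjusted p below 0.05. Six2, Gdnf, Eya1, Itga8, Sall1 and Osr1 of this list are also among the 10 nephron progenitor markers counted below. The nephron progenitor factor Six2 had a mean of -0.14 ± 0.08 and the mesenchyme factor Osr1 -0.15 ± 0.27. With median centring the Polycomb and trithorax median was 0.21 and that of the mesenchyme genes 0.08.

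Genes flanking the clusters gave no common direction. Of 5 measured neighbours of HoxA 3 were above 0 (median 0.08; Tax1bp1 -0.43 ± 0.55, Snx10 0.29 ± 0.47). Of 5 neighbours of HoxB 3 were above 0 (median 0.01), and Skap1, an adaptor of T cell signalling, gave 0.29, 0.38, 0.35 and 0.30 (mean 0.33 ± 0.04; unadjusted p = 0.00172, adjusted p = 0.422 in limma). Of 6 neighbours of HoxC 2 were above 0 (median -0.12), with Calcoco1 at -0.28 ± 0.18 (unadjusted p = 0.021, adjusted p = 0.754 in limma). Of 5 neighbours of HoxD 2 were above 0 (median -0.05; Mtx2 0.20 ± 0.23, Lnpk 0.13 ± 0.25). With median centring the neighbours of HoxA, HoxC and HoxD had medians of 0.30, 0.15 and 0.19.

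Markers of other cells the dissected tissue could hold were also counted. Nephron progenitor markers had 2 of 10 above 0 (median -0.09), stromal markers 2 of 8 (median -0.13) and endothelial markers 5 of 7 (median 0.08). With median centring these medians were 0.21, 0.22 and 0.27, and the endothelial median was -0.07 with the RNA labelled mutant in Cy5 and 0.27 with it in Cy3. Their summed levels were 54950 to 66450, 124400 to 146900 and 20920 to 23980 in the RNAs labelled wild type and 56570 to 59730, 107500 to 128100 and 22210 to 23610 in those labelled mutant. Macrophage markers had 1 of 6 above 0 (median -0.29), with 3 lower and 1 higher at an unadjusted p below 0.05. Erythroid markers had 1 of 6 above 0 (median -0.15), muscle and body wall markers 1 of 6 (median -0.05) and adrenal and gonad markers 3 of 6 (median 0.02). No marker list had a member at an adjusted p below 0.05, and their part in the Hox ratios was not tested.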

How the data were processed

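RNA of E13.5 kidneys was measured on 8 two-colour arrays of 45018 spots (1639 of them controls), scanned with Feature Extraction 10.5.1.1 per the file headers. The deposited scanner files hold spot intensity (median signal and background), a log10 ratio of red over green and background flags, all from the authors' scan. The authors' deposited table of 496 log2 ratios was used for its sign alone; how it was made is not given in the sources used here.

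From the median intensity, ratios were computed in limma 3.58.1 (R 4.3.3): normexp background correction with an offset of 50, loess within arrays, the sign turned by the dye labels, and the 2 arrays of a replicate averaged. Loess gave control and outlier spots no weight. Probes well above background in either channel on at least 4 of 8 arrays were kept (39520 of 41174), and the brightest probe stands for a gene. Ratios of the 4 replicates were tested against 0 with lmFit and eBayes and adjusted with Benjamini-Hochberg over 31183 genes, 17113 of them named through RefSeq. Levels are log2 intensities after quantile normalization of average intensities between arrays. Replicates are paired by the arrays, as each array holds 1 RNA of each label. An exact two-sided sign-flip test of 4 replicates cannot go below p = 0.125, so none is given. The fit was tested on simulated data.

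Values by replicate are given for groups 9 to 11, Hoxb7, members with an unadjusted p below 0.05, the 2 highest and 2 lowest means of each cluster, and members whose probes disagree in sign by over 0.2. From the other lists, up to 4 genes with an unadjusted p below 0.05 are named, or the 2 of smallest p. The bud markers with a mean below 0 are named as well. Marker lists without a bearing on a named member are given by counts. Members and lists were chosen with earlier results of these data known. Promoter sequences are from RefSeq. Alternatives changed the offset, the normalization, the probe filter, the probe summary, the slide and replicate blocks, array weights and the replicates used. The number of arrays limits the precision, as do the disagreements between dyes, slides and probes given above; the replicates are 4 pairs of RNA. No spot was saturated.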

Additional observations from a re-analysis of the deposited data

Results flagged for a closer look

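In 6 of 113 groups of 4 values tested, the highest or lowest replicate stood apart from the other 3 by more than Dixon's 95% critical share of the range of the group; chance flags about 1 in 20 groups, so this number is near what chance gives. Hoxb6 had a level of 12.19 in the replicate 3 RNA labelled mutant, below the others. Hoxb9 had a log2 ratio of 0.11 in replicate 4, above the others. Hoxb13 had a log2 ratio of -0.0677 in replicate 1, below the others, on a signal near background. Hoxd8 had a level of 10.73 in the replicate 4 RNA labelled wild type, below the others. Hoxd9 had a level of 9.68 in the replicate 2 RNA labelled wild type, below the others. Hoxd11 had a level of 10.69 in the replicate 4 RNA labelled mutant, above the others.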

How the results depend on the processing

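The main result, no Hox gene at an adjusted p below 0.05, held under every alternative run except slide 2 alone (1 gene, Hoxb4). Over all genes, where the main test called 0 higher and 0 lower, median centring called 6 and 1, the scanner log ratio 4 and 1, array weights 58 and 20 (replicate 2 had a weight of 0.232), slide 2 alone 38 and 66, and the RNA labelled mutant in Cy5 alone called 1 lower. With all 8 arrays and the replicate block (consensus correlation -0.0262) 58 and 16 genes were called and no Hox gene. That fit counted both arrays of a replicate nearly as independent. Of the genes named here, the bud markers below 0 left out, the block changed the calls of Cdh16, Krt8 and Calb1 and no other. Array weights and slide 2 alone each called Cdh16, Krt8, Epcam and Calb1 higher (limma adjusted p at most 0.0232 and 0.0496). Cdh16 was also called with median centring, with the scanner log ratio and without replicate 2 (limma adjusted p = 0.0472, 0.0488 and 0.0304). Leaving out a replicate gave 0 to 9 higher and 0 to 2 lower, the highest without replicate 2. Hox genes at an unadjusted p below 0.05 (4) numbered 8 with median centring, 8 with array weights, 0 in slide 1, 11 in slide 2, and 1 (without replicate 3) to 7 (without replicate 2). The count over all genes (1839) also moved, to 3030 with median centring, 3260 with array weights, 504 in slide 1 and 3486 in slide 2. It was 892 without replicate 3 and 2187 without replicate 2. Median ratios moved to 0.0341 (Hox), 0.272 (HoxB) and 0.223 (central) with median centring, to 0.105 (HoxB) and 0.0162 (HoxC) with the scanner ratio, to 0.0772 (HoxB) with probes detected on all arrays, and to -0.16 (HoxD) and -0.171 (anterior) with the RNA labelled mutant in Cy5 alone. The cause of each was not tested.

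Among the Hox genes given by replicate and the named genes of other lists (the bud markers below 0 left out), signs of mean log2 ratios turned as follows. With median centring, Hoxa3 was at 0.0341, Hoxa10 at 0.272, Hoxb9 at 0.236, Hoxc9 at 0.177, Hoxc10 at 0.0494, Hoxc12 at -0.0533, Hoxc13 at -0.0632, Hoxd11 at 0.0473, Col1a1 at 0.0886, Kdr at 0.0847, Meis2 at 0.0957, Cyp26b1 at 0.125 and Six2 at 0.0429. With the RNA labelled mutant in Cy5 alone, Hoxa3 was at 0.0739, Hoxb9 at 0.0363, Hoxc5 at 0.127, Hoxc10 at 0.0294, Hoxc12 at -0.0347, Hoxd8 at -0.0776, Hoxd10 at -0.241, Six2 at 0.0497, Mtx2 at -0.0985 and Lnpk at -0.108. With it in Cy3 alone, Hoxa10 was at 0.223, Hoxc9 at 0.0253, Hoxc13 at -0.0498, Hoxd11 at 0.0654 and Cdx4 at 0.0136. In slide 1, Hoxa10 was at 0.0034, Hoxa11 at -0.0856 and Hoxc13 at -0.0086. In slide 2, Hoxa3 was at 0.0512, Hoxb3 at -0.169, Hoxc5 at 0.0175, Hoxd11 at 0.0067, Cdx4 at 0.0753, Snx10 at -0.0138 and Lnpk at -0.0442. With array weights, Hoxa3 was at 0.0102, Hoxb3 at -0.0826 and Hoxc5 at 0.0121. With the scanner ratio, Hoxb9 was at 0.0268 and Hoxc10 at 0.0263. With the mean of a gene's probes, Hoxb3 was at -0.0531 and Lnpk at -0.0143. Leaving out 1 replicate at a time gave -0.0481 to 0.0351 for Hoxa3, -0.0669 to 0.0214 for Hoxa10, -0.0163 to 0.118 for Hoxa11, -0.0573 to 0.293 for Hoxb3, -0.208 to 0.0588 for Hoxc5 and -0.0222 to 0.217 for Hoxd10. Of the other 14 Hox genes, 4 turned sign with median centring, 6 with the scanner ratio, 2 with array weights, 6 in slide 1, 3 in slide 2, 4 with the RNA labelled mutant in Cy5 alone, 6 with it in Cy3 alone, and 1 to 4 when a replicate was left out.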
